A study of Homo sapiens with 22 samples.

Results

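Arachidonic acid is turned into leukotrienes and prostaglandins by 2 short enzyme routes, and the 8 genes described here encode steps of both: ALOX5AP, ALOX5, LTA4H and LTC4S on the leukotriene route, and PTGS1, PTGS2, PTGES and TBXAS1 on the prostanoid route. They were picked by gene symbol from the 33538 genes of the WM989 count matrix and the 36601 genes of the WM983B and treatment matrices, and all 8 were present in each. The choice rested on the measurements themselves, because ALOX5AP stood out for its ratio of primed to drug-susceptible levels in WM989. Those ratios are therefore given as descriptions with no test.

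The study followed melanoma cells that switch between a drug-susceptible state and a primed state, in which cells are more likely to survive targeted therapy. WM989 is a BRAF-mutated human melanoma line and WM983B a second melanoma line. WM989 carried lineage barcodes delivered by lentivirus, and its cells came from a mixed sort and from a sort for high EGFR and NGFR, both then expanded. The WM989 experiment held untreated cells in 2 replicates, r1 and r2, the WM983B experiment held untreated cells in 1 library, and the treatment experiment held sorted and expanded WM989 cells in 2 parallel samples, each split over plates that were left untreated or given TGFB1 (a cytokine), TGFBRi (LY2109761, an inhibitor of the TGFB receptor kinases) or PI3Ki (GDC-0941, an inhibitor of PI3 kinase), with 2 libraries each. The sample labels name the 2 libraries of each treatment Mix and Primed, while the labels of single cells use r1 and r2. A separate set of 12 ATAC-seq libraries mapped open chromatin in WM989 cells sorted as EGFR/NGFR-high, EGFR-high, NGFR-high or negative for both markers (a sort that the labels call Mix), with 3 libraries each. Both lines are clonal, so each stands for 1 clone, and the 4 treatments of a replicate share its culture. P-values of the treatment comparisons rest on the spread between libraries that remains once treatment and replicate are fitted. The 2 parallel samples came from the same line.

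The deposited classes put 2843 of 12531 WM989 cells (22.7%, 3 of 11 clusters), 731 of 1449 WM983B cells (50.4%, 2 of 4 clusters) and 4077 of 40021 cells of the treatment experiment (10.2%, 2 of 13 clusters) in the primed state. Median depth per cell was 58253 UMIs (unique molecules counted) in primed and 52835 in drug-susceptible WM989 cells, 63758 and 72188 in WM983B, and between 13013 and 21721 over the 8 treatment libraries, whose totals were 70239657 to 122420544 UMIs. The classes matched their markers in WM989: the summed level of 6 melanocytic genes (SOX10, MITF, PMEL, MLANA, TYR, DCT) was 202 UMIs per 1000000 (CPM) in primed and 4880 in drug-susceptible cells, and that of EGFR, AXL, NGFR and NT5E was 316 and 29.3 CPM. In WM983B the contrast was smaller, at 745 against 2046 CPM and 221 against 79.6 CPM. A list of fibroblast genes summed to 246 against 37.2 CPM and a list of endothelial genes to 25.3 against 0.498 CPM in the 2 states of WM989. The fibroblast sum in primed cells was mostly COL1A1 (160 against 1.69 CPM) and PDGFRA (47.3 against 0.734 CPM). LUM alone of that list was lower there (16.9 against 32.2 CPM). The endothelial sum was mostly PECAM1 (22.8 against 0.183 CPM), with CDH5 at 1 and 2 UMIs. Any pair of wells shared at most 4 cell barcodes in WM989 and at most 13 in the treatment experiment.

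In the leukotriene route, ALOX5 (5-lipoxygenase) oxidises arachidonic acid and the membrane protein FLAP, encoded by ALOX5AP, presents the substrate to it. LTA4H then hydrolyses leukotriene A4 to leukotriene B4, an attractant for neutrophils, while LTC4S joins it to glutathione to start the cysteinyl leukotrienes. In the prostanoid route the cyclooxygenases PTGS1 and PTGS2 make prostaglandin H2, which PTGES converts to prostaglandin E2 and TBXAS1 to thromboxane A2. Leukotrienes are best known from leukocytes, which express ALOX5 and ALOX5AP together, and PTGS2 is induced by growth factors and cytokines in many cell types, tumour cells included.

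The 3 stretches of genomic sequence printed here accompany the results below, each chosen for what was measured there. The first 2 are the central 201 bases of the 2 open regions inside ALOX5AP that were found in all 12 ATAC-seq libraries. Both lie in intron 1 of ALOX5AP on chromosome 13 and are printed on the gene's strand (hg38), with capitals marking AP-1 letters (TGANTCA, where N is any base) and TEAD letters (GGAATG). The last is the promoter window of PTGS2 from RefSeq (GRCh38.p14, minus strand, 250 bases before to 50 after the start), shown because PTGS2 had both a peak at its start and a change under treatment, with capitals marking NF-kB-type letters (GGGA, any 4 bases, then CC) and the E-box bound by MITF-type factors (CACATG).
ALOX5AP intron 1 region at +8248 bases, chr13:30743691-30743891: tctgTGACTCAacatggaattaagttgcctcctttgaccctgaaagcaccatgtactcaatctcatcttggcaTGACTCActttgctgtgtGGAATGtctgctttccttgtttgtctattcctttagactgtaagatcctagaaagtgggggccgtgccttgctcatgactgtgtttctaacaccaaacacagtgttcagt
ALOX5AP intron 1 region at +4764 bases, chr13:30740207-30740407: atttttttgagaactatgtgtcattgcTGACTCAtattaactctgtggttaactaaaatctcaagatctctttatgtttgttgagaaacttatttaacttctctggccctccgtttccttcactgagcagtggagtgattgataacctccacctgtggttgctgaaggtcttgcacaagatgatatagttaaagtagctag
PTGS2 promoter, chr1:186680374-186680673: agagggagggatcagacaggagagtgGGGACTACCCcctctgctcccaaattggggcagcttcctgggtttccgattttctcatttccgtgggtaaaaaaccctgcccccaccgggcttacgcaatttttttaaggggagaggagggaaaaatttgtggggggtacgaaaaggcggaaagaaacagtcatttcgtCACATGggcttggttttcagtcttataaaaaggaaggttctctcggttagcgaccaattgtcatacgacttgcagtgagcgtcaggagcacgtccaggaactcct
The region at +8248 held 2 AP-1 matches, 96 and 27 bases before its summit, and 1 TEAD match 9 bases before it, and the region at +4764 held 1 AP-1 match 73 bases before its summit. Over all 151657 open regions, the same 201-base window held AP-1 letters in 18.4% and TEAD letters in 15.6%. Among the 24878 regions that were higher in all EGFR/NGFR-high than in all marker-negative libraries the AP-1 share was 39.2%, against 14.3% of the other regions. The PTGS2 window held NF-kB-type letters 224 bases and E-box letters 55 bases before the start, which 25.6% and 11.1% of 35116 promoter windows also held. A RefSeq window was at hand for 7 of the 8 genes, with ALOX5 the one without. The ALOX5AP window lay at the RefSeq start, 22058 bases upstream of the canonical start from which the printed regions are placed. No window at the canonical ALOX5AP start was searched. TBXAS1 held AP-1 and TEAD matches that overlap each other and an E-box, 1 of 2 PTGS1 windows held NF-kB-type letters, and the windows of ALOX5AP, LTA4H, LTC4S and PTGES held none of the 5 motifs searched on both strands (the fifth, the cyclic AMP element TGACGTCA, was found in none of the members' windows).

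ALOX5AP was counted almost entirely in primed WM989 cells. Its level was 22.1 CPM in primed cells (4251 UMIs) and 0.0394 CPM in drug-susceptible cells (22 UMIs), a ratio of 562 with an exact 95% counting interval of 370 to 897 (1024, 350 to 4968, in G1 cells alone). Replicate r1 had 28.2 against 0.0348 CPM (ratio 809, 463 to 1568) and r2 had 15.8 against 0.0468 CPM (ratio 338, 183 to 705). The primed level itself was lower in r2. By well, primed levels were 23.8 to 38.6 CPM (median 29.2) in r1 and 9.15 to 17.8 CPM (median 13.8) in r2. Per the methods, the mixed and the EGFR/NGFR-high cells were each split between wells when loaded, so wells are not independent samples. Intervals on counts and shares, here and throughout, cover counting error only.

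Within the primed state ALOX5AP was uneven. Cluster 2 was highest at 26.0 CPM (25.0 to 26.9), followed by cluster 9 at 18.4 CPM (17.2 to 19.6) and cluster 8 at 14.1 CPM (12.8 to 15.5). The intervals of the 3 clusters did not overlap, but the spread between replicates was wider than these gaps: cluster 2 had 32.2 and 18.9 CPM, cluster 9 had 23.6 and 14.6 CPM and cluster 8 had 20.05 and 4.97 CPM in r1 and r2. The order was the same in both replicates. None of the 8 drug-susceptible clusters exceeded 0.0813 CPM, and cluster 10 had no ALOX5AP UMI.

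At the level of single cells, 34.3% of primed cells (32.5 to 36.0%) held an ALOX5AP UMI, against 0.227% of drug-susceptible cells (0.142 to 0.344%), at similar median depths. After each cell was thinned to 10000 UMIs the shares were 13.3% and 0.0313%. Of the 974 primed cells with a UMI, 393 held only 1, the median was 2 and the highest count was 78. A small number of cells carried much of the transcript, since the 96 cells with 10 UMIs or more, 3.38% of primed cells, held 45.7% of the ALOX5AP UMIs in that state. Cells with ALOX5AP were deeper than primed cells without it, at a median of 68936 against 52422 UMIs. NT5E was detected in 97.8% of the former and 96.7% of the latter, and SOX10 in 14.7% and 18.5%.

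Because ALOX5AP is best known from leukocytes, 15 leukocyte genes were set beside it. In primed WM989 cells 11 of the 15 had a UMI, 4 were above 1 CPM, and their sum was 114 CPM against 57.6 CPM in drug-susceptible cells (12 with a UMI, 2 above 1 CPM). The sum was mostly CD68 (91.8 against 44.7 CPM), FCER1G (15.3 against 10.3 CPM) and CSF1R (3.21 against 0.0340 CPM). CD3E, MS4A1, FCGR3A and TYROBP were at 0 in primed cells, and PTPRC, which marks nearly all leukocytes, was at 0.0260 CPM there against 0.0591 CPM in drug-susceptible cells. None of the 974 primed cells with ALOX5AP held a PTPRC or a TYROBP UMI, while 5 of the 1869 without it held PTPRC.

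The genes whose levels followed ALOX5AP most closely over the 11 WM989 clusters, among 9221 genes that reached 10 CPM in a cluster, were AQP1 (Pearson's r of log2(CPM + 1) 0.998), LYPD6B (0.998), SPOCK1 (0.998), COL5A1 (0.997) and SRPX2 (0.997). Over the 13 clusters of the treatment experiment, among 9162 genes, they were CSF1R (0.998), ERMN (0.996), PODXL (0.993), APCDD1L-DT (0.993) and COL10A1 (0.987). These are descriptions over clusters that share their libraries, and they rest mainly on the contrast of primed with drug-susceptible clusters. No gene was on both lists.

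ALOX5, the lipoxygenase that FLAP serves, had no UMI in any cell of the 3 experiments. A count of 0 allows up to 0.00400 CPM and 0.0239% of cells with a UMI in WM989, 0.0292 CPM and 0.207% in WM983B, and 0.00438 CPM and 0.00750% in the treatment experiment. These shares limit cells with a counted UMI, not cells that express ALOX5. The 4273 ALOX5AP UMIs of WM989 thus stood beside none of ALOX5 at the same depth.

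LTA4H, the next enzyme, was present in both states at nearly equal levels, 23.4 CPM in primed against 21.5 CPM in drug-susceptible WM989 cells (ratio 1.08, 1.05 to 1.12). The ratio was 1.13 in r1 (22.9 against 20.2 CPM) and 1.01 in r2 (23.9 against 23.7 CPM), so the replicates differed by more than the counting interval. By cluster it ran from 16.3 CPM in cluster 3 to 34.0 CPM in cluster 10, both drug-susceptible. LTC4S was close to absent, with 2 UMIs in primed and 19 UMIs in drug-susceptible cells (ratio 0.306, 0.0346 to 1.27), an interval that includes equality.

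On the prostanoid route both cyclooxygenases and PTGES were higher in primed WM989 cells, and TBXAS1 was lower. PTGS2, the inducible cyclooxygenase, was at 10.7 against 0.623 CPM (ratio 17.2, 15.3 to 19.3), with 9.58 against 0.522 CPM in r1 and 11.9 against 0.787 CPM in r2. PTGES, which makes prostaglandin E2 from the product of PTGS2, was at 4.71 against 0.184 CPM (ratio 25.5, 20.8 to 31.6). The ratio of PTGES was 28.8 in r1 and 24.0 in r2 although its primed level was lower in r2, at 2.81 CPM against 6.52 CPM in r1. PTGES resembled ALOX5AP in this, with wells of 5.82 to 10.0 CPM in r1 and 1.66 to 2.99 CPM in r2. The wells of PTGS2 were at 2.07 to 11.8 CPM and 5.55 to 14.1 CPM.

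PTGS1, the cyclooxygenase that many tissues express without induction, was rare but nearly limited to primed cells, with 183 UMIs (0.952 CPM) against 5 UMIs (0.00895 CPM), a ratio of 106 (44.8 to 332). It was counted in 5.21% of primed cells. The primed and drug-susceptible counts were 84 and 2 UMIs in r1 and 99 and 3 UMIs in r2. TBXAS1, thromboxane synthase, was at 5.07 against 9.74 CPM (ratio 0.520, 0.485 to 0.557), with a ratio of 0.454 in r1 and 0.644 in r2. TBXAS1 thus fell just short of a 2-fold difference over all cells.

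The 3 primed clusters also differed in their prostanoid genes. PTGS2 was at 13.6 CPM in cluster 2, 11.5 CPM in cluster 8 and 3.52 CPM in cluster 9, and in cluster 9 the replicates were close (3.62 and 3.45 CPM). Cluster 8 held that level in fewer cells, 9.79% with a PTGS2 UMI against 26.5% in cluster 2 and 16.6% in cluster 9. A single cell held 178 of the 356 PTGS2 UMIs of cluster 8, and without it the level was 5.76 CPM. Leaving out the top cell likewise (a comparison chosen after the data were seen) gave 11.5 CPM in cluster 2 and 3.36 CPM in cluster 9. Among drug-susceptible clusters PTGS2 ran from 0.136 to 2.41 CPM, with the highest value in cluster 10, which had no ALOX5AP UMI. There 1 cell held 31 of 58 PTGS2 UMIs, and without it cluster 10 was at 1.13 CPM, below the 1.43 CPM of cluster 4. PTGES hardly differed between primed clusters (4.86, 4.97 and 4.20 CPM in clusters 2, 8 and 9) and stayed at 0.114 to 0.581 CPM in the others. TBXAS1 was lowest in cluster 2 at 4.16 CPM and reached 12.9 CPM among the drug-susceptible clusters.

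**Figure D1:**
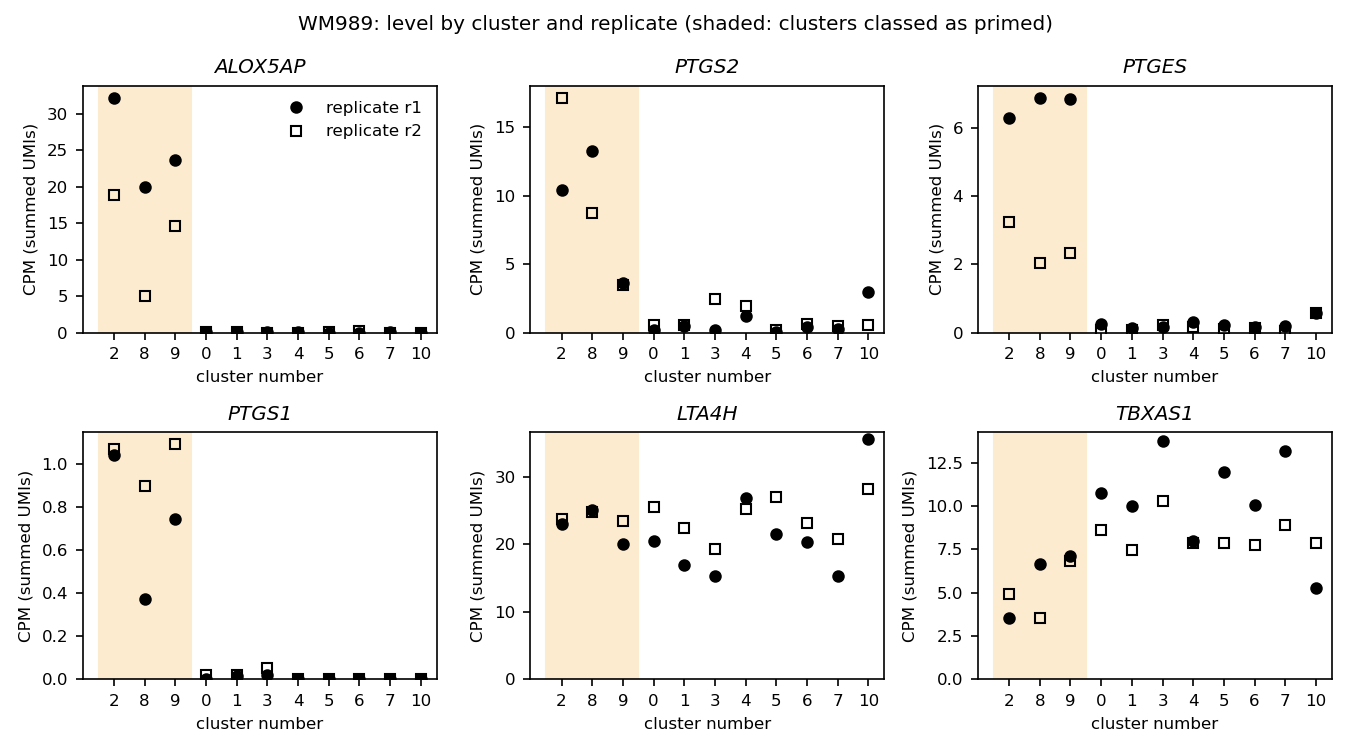
Level of 6 genes (CPM of summed UMIs, vertical axes starting at 0) in each of the 11 WM989 clusters (horizontal axis, cluster number), with replicate r1 as filled circles, r2 as open squares and the primed clusters 2, 8 and 9 shaded. ALOX5AP, PTGS1 and PTGES are highest in the shaded clusters, with ALOX5AP and PTGES lower in r2, while LTA4H lies between 16.3 and 34.0 CPM over all clusters when the replicates are summed.

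The overlap of these transcripts was counted cell by cell. Of the 4 genes that were higher in primed cells (ALOX5AP, PTGS1, PTGS2 and PTGES), 44.6% of primed cells held a UMI of none, 36.5% of 1 and 18.9% of 2 or more, against 96.5%, 3.42% and 0.0413% of drug-susceptible cells. PTGS2 and PTGES, consecutive steps to prostaglandin E2, were both counted in 4.19% of primed cells against 0.0310% of drug-susceptible ones. Within the primed state PTGS2 was found in 24.9% of cells with ALOX5AP and in 18.4% of those without, and PTGES in 24.7% and 14.0%, at the unequal depths given above.

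Of the 7 members with at least 20 UMIs in WM989, 5 were past a 2-fold difference (ALOX5AP, PTGS1, PTGS2 and PTGES higher, LTC4S lower), as were 27.7% of all 20056 genes with that many UMIs. In WM983B 1 of 4 (PTGS2, with a single cell as described below) was past it, against 6.27% of 17443 genes. Over all treatments of the treatment experiment 6 of 7 were (ALOX5AP, LTC4S, PTGS1, PTGS2 and PTGES higher, TBXAS1 lower), against 23.7% of 21390 genes. There 3334 of the 4077 primed cells came from TGFB1 libraries. In untreated cells alone TBXAS1 was at 5.75 against 9.11 CPM, and LTC4S had 0 UMIs in primed and 10 UMIs in drug-susceptible cells. The states are clusters of the same counts, so nothing is read from these shares.

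In the second line, WM983B, the difference in ALOX5AP was not seen. ALOX5AP had 7 UMIs in primed and 4 UMIs in drug-susceptible cells, 0.143 and 0.0742 CPM, a ratio of 1.93 (0.491 to 9.0). The level in primed WM983B cells was thus far below that of primed WM989 cells. PTGS2 was higher in primed cells, at 5.08 against 1.97 CPM (ratio 2.58, 2.05 to 3.27), and PTGS1 had 16 against 3 UMIs (ratio 5.89, 1.69 to 31.5). A single primed cell held 66 of the 248 PTGS2 UMIs. Without it the primed level was 3.73 CPM and the ratio 1.90, short of 2-fold, and 2.09 when the top drug-susceptible cell was also left out. The shares of cells with a PTGS2 UMI were close, 12.7% (10.4 to 15.4%) of primed and 11.7% (9.44 to 14.3%) of drug-susceptible cells. When only cells in G1 phase were kept the PTGS2 ratio was 8.57 (4.48 to 18.4). Whether the top primed cell was among the G1 cells is not given, nor is the G1 ratio without it.

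PTGES was expressed in both states of WM983B, at 18.8 CPM in primed against 13.1 CPM in drug-susceptible cells (ratio 1.44, 1.30 to 1.59), and 60.2% and 58.9% of the cells held a UMI. The drug-susceptible level of PTGES in WM983B was thus above its primed level in WM989. LTA4H was at 32.7 and 31.9 CPM (ratio 1.02), TBXAS1 at 4.16 and 5.31 CPM (ratio 0.784), and LTC4S had no UMI. With 1 library of this line there is no replicate check, and the 2 lines were not prepared together, so line and library cannot be told apart.

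**Figure D2:**
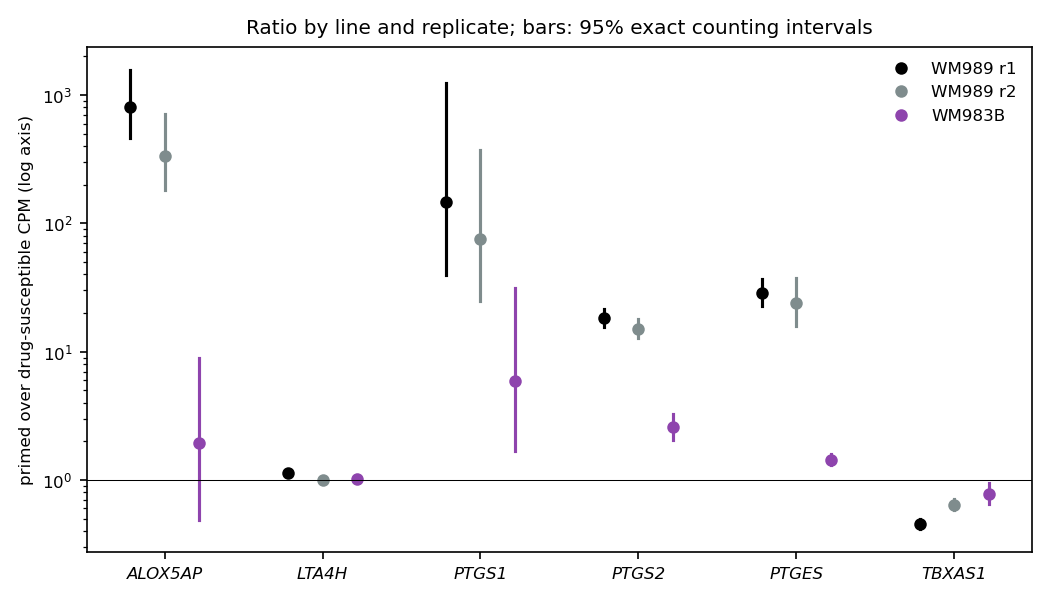
Ratio of primed to drug-susceptible CPM (vertical log axis) for 6 genes in WM989 r1 (black), WM989 r2 (grey) and WM983B (purple), with bars for exact 95% counting intervals and a line at a ratio of 1. ALOX5AP, PTGS1, PTGS2 and PTGES lie above 10 in both WM989 replicates and lower in WM983B (ALOX5AP 1.93, PTGES 1.44), while LTA4H is near 1 in all 3.

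The treatment experiment asked how signalling moves cells between states, and it held the states in very different shares. Primed cells made up 2.26% and 4.47% of untreated cells (r1 and r2), 29.1% and 31.3% after TGFB1, 2.26% and 4.32% after TGFBRi and 0.647% and 1.21% after PI3Ki. In sums over a whole library, more cells of a state and more RNA per cell cannot be told apart, so the sums over each state are given beside them. Over all treatments ALOX5AP was at 8.99 CPM (468 UMIs) in primed and 0.0379 CPM (24 UMIs) in drug-susceptible cells. The ratio was 237 (157 to 374), but it pools treatments of very different primed shares. The TGFB1 libraries held 3334 of the 4077 primed cells, 457 of the primed and 23 of the drug-susceptible ALOX5AP UMIs. TGFB1 cells alone had 10.8 against 0.188 CPM, and untreated cells 2.87 against 0.00647 CPM (11 and 1 UMIs). The same pooled description gave 12.8 (10.4 to 15.7) for PTGS2, 9.30 (7.14 to 12.1) for PTGES and 36.5 (17.4 to 83.7) for PTGS1. It gave 0.960 for LTA4H and 0.443 for TBXAS1. In untreated cells alone PTGS2 was at 7.84 against 0.356 CPM and TBXAS1 at 5.75 against 9.11 CPM. A single cell held 9 of the 30 PTGS2 UMIs of untreated primed cells. In TGFB1 cells alone PTGS2 was at 3.41 against 0.352 CPM and TBXAS1 at 4.36 against 10.6 CPM. Cluster 4 held 453 of the ALOX5AP UMIs at 10.8 CPM, and the other primed cluster, 10, was at 1.45 CPM (15 UMIs), the same number of UMIs as in drug-susceptible cluster 3 (0.271 CPM), although PTGS2 (3.71 and 3.59 CPM) and PTGES (2.01 and 1.94 CPM) were level between them.

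ALOX5AP was higher in both TGFB1 libraries than in every other library. Whole-library levels were 0.0768 and 0.0748 CPM untreated (6 UMIs in each library) and 3.09 and 2.75 CPM after TGFB1 (247 and 233 UMIs), a ratio of 38.4 for the summed libraries. ALOX5AP passed the filter on low counts only through the TGFB1 libraries, in whole libraries and within each state, so its calls are not counted with those of the other members and no test of it is given. Of the other 4 members tested by edgeR's quasi-likelihood test, 2 (PTGS2 and PTGES) were called, as were 29.0% of all 18389 genes. ALOX5, LTC4S and PTGS1 did not pass that filter in any comparison of a treatment with untreated libraries.

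No ALOX5AP UMI was counted in the 4 libraries given an inhibitor. A floor of 3 counts over the group lay 4.29-fold (TGFBRi) and 4.87-fold (PI3Ki) below the level of the 2 untreated libraries. These together held 12 UMIs, whose own counting error is not part of those values. The 3 treatments share their untreated libraries, so their values are not independent.

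Within primed cells ALOX5AP was at 11.8 and 9.84 CPM after TGFB1 (237 and 220 UMIs) and at 3.73 and 2.41 CPM untreated (5 and 6 UMIs). The share of primed cells with a UMI was 10.4% and 9.28% against 3.19% and 2.42%. These cells came from different clusters: 98.2% and 97.1% of primed TGFB1 cells were in cluster 4, while 94.7% and 96.4% of untreated, all TGFBRi and 88.0% and 97.1% of PI3Ki primed cells were in cluster 10. Within the primed state cluster and TGFB1 treatment therefore cannot be told apart. In cluster 10 alone ALOX5AP had 3 and 1 UMIs after TGFB1 (8.42 and 1.62 CPM) and 5 and 6 UMIs untreated (4.03 and 2.51 CPM), which overlap. Of the other 3 members tested edgeR called 0 and DESeq2 called 0, where edgeR called 13.3% of 10930 genes. Only 1 (PTGS2) was at an unadjusted p under 0.05, and it passed the filter only through both untreated libraries and PI3Ki r1. None of the 389 primed cells of the TGFBRi libraries and none of the 95 of the PI3Ki libraries held an ALOX5AP UMI. Their counting intervals reached up to 0.815 and 2.95 CPM, against 1.43 to 5.14 CPM in untreated primed cells (11 UMIs). The PI3Ki interval therefore overlapped the untreated one.

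In drug-susceptible cells ALOX5AP had 10 and 13 UMIs after TGFB1 (0.167 and 0.208 CPM), 1 and 0 UMIs untreated, and none after either inhibitor. Since these 2 libraries alone brought it past the filter, and without either of them it did not pass, ALOX5AP was not compared further there. Of the other 4 members tested edgeR called 0 in drug-susceptible cells, with 2 (LTA4H and TBXAS1) at an unadjusted p under 0.05 and 0 by DESeq2, where 14.9% of 17914 genes were called.

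Summed markers of other cell types also differed between whole TGFB1 and untreated libraries, though single genes of a list can differ from its sum. Their part in the rise of ALOX5AP was not tested. The fibroblast list summed to 91.5 and 93.3 CPM in the TGFB1 libraries against 32.3 and 33.6 CPM untreated, and the endothelial list to 3.63 and 2.81 CPM against 0.679 and 0.611 CPM. The melanocytic list was lower, at 3007 and 3239 CPM against 4557 and 4510 CPM. The summed level of the 15 leukocyte genes was 66.1 and 63.9 CPM in the TGFB1 libraries and 44.1 and 48.2 CPM untreated. It was 47.1 and 55.1 CPM after TGFBRi and 44.4 and 51.4 CPM after PI3Ki, where ALOX5AP had no UMI. FCER1G was at 26.5 and 23.4 CPM after TGFB1 against 8.61 and 8.25 CPM untreated, and CSF1R at 3.87 and 3.67 CPM against 0.102 and 0.137 CPM. Of the 15, 9 and 11 had a UMI in the TGFB1 libraries and 10 and 11 in the untreated ones. TYROBP was at 0 in all of these, and PTPRC was at 0.0250 and 0.0472 CPM after TGFB1. In primed cells 9 of the 15 had a UMI and their sum was 86.6 CPM against 49.9 CPM in drug-susceptible cells.

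PTGS2 and PTGES rose with TGFB1 in whole libraries, while neither passed the test within a state, where PTGES could be tested in drug-susceptible cells only. PTGS2 was at 0.913 and 1.36 CPM after TGFB1 against 0.499 and 0.573 CPM untreated (edgeR log2 fold change 1.06 ± 0.20, SE, adjusted p = 0.000332). PTGES was at 0.638 and 0.778 CPM against 0.256 and 0.361 CPM (1.18 ± 0.25, adjusted p = 0.000862). Neither gene's groups overlapped, which is a description only, since the share of all genes without overlap was not taken. Both calls held without any single library.

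In drug-susceptible cells the same genes were level, PTGS2 at 0.301 and 0.400 CPM after TGFB1 against 0.404 and 0.309 CPM (log2 fold change -0.04 ± 0.32) and PTGES at 0.234 and 0.288 CPM against 0.221 and 0.283 CPM (0.03 ± 0.34). In primed cells PTGS2 was at 2.73 and 4.03 CPM after TGFB1 and at 5.96 and 8.85 CPM untreated (8 and 22 UMIs). The edgeR log2 fold change of -1.08 ± 0.40 missed the threshold (adjusted p = 0.0652). There PTGS2 passed the filter on low counts only through both untreated libraries and PI3Ki r1, so its test is not read further. The 5 and 6 untreated primed cells of cluster 4 held 3 and 9 of the untreated UMIs. In r2 all 9 of these were in 1 cell, so that cell held 9 of the 22 UMIs behind the r2 level. PTGS2 was at 4.03 and 5.44 CPM in untreated cells of cluster 10 against 2.78 and 4.05 CPM in TGFB1 cells of cluster 4. PTGES in primed cells was at 1.84 and 2.15 CPM after TGFB1 and at 2.24 and 2.82 CPM untreated (3 and 7 UMIs), too few to be tested there.

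After PI3Ki TBXAS1 rose in whole libraries, by edgeR and by DESeq2, while PTGES and PTGS2 fell by edgeR alone. Leaving out ALOX5AP, edgeR called 3 of 4 members tested, 1 higher and 2 lower, where 12.7% of all genes were called, and DESeq2 called 1 (TBXAS1), with an adjusted p of 0.132 for PTGS2 and none given for PTGES. PTGES was at 0.0997 and 0.0899 CPM (7 and 11 UMIs) against 0.256 and 0.361 CPM untreated (log2 fold change -1.64 ± 0.37, adjusted p = 0.00440). It reached the cutoff of the filter on low counts in 6 libraries (TGFB1, TGFBRi and untreated) but in neither PI3Ki library. Of the libraries compared here, PTGES thus passed only through the untreated ones, and its call rests on low counts. TBXAS1 was at 12.6 and 13.1 CPM, above the 9.01 and 9.04 CPM of the untreated libraries (0.61 ± 0.08, adjusted p = 2.32e-05). PTGS2 was at 0.199 and 0.319 CPM against 0.499 and 0.573 CPM (-0.91 ± 0.26, adjusted p = 0.0230), a call that was lost without any one of the 4 libraries compared, with adjusted p between 0.0786 and 0.153.

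Within drug-susceptible cells 2 of the same 4 members (TBXAS1 and PTGES) were called by edgeR after PI3Ki, where 12.1% of genes were, and 1 (TBXAS1) by DESeq2. Here too PTGES reached the cutoff of the filter on low counts in neither PI3Ki library. TBXAS1 rose from 8.98 and 9.24 CPM to 12.6 and 13.1 CPM (0.59 ± 0.08, adjusted p = 2.37e-05), so its whole-library rise was as large inside the state that held nearly all PI3Ki cells. PTGES fell from 0.221 and 0.283 CPM to 0.1001 and 0.0906 CPM (-1.34 ± 0.39, adjusted p = 0.0240), and this call was lost without any one of the 4 libraries (adjusted p 0.0740 to 0.382). The whole-library call of PTGES was lost without PI3Ki r2 (0.208) or untreated r2 (0.0763). PTGS2 was at 0.172 and 0.288 CPM against 0.404 and 0.309 CPM in drug-susceptible cells (-0.47 ± 0.31, adjusted p = 0.380). PI3Ki primed cells were few, 25 in r1 and 70 in r2, and had no PTGES UMI.

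After TGFBRi edgeR called 0 of these 4 members in whole libraries, with 1 (PTGS2) at an unadjusted p under 0.05 and 0 by DESeq2, where 2.53% of genes were called. PTGS2 was at 0.279 and 0.297 CPM, below both untreated libraries (log2 fold change -0.88 ± 0.26, adjusted p = 0.0866). PTGES was at 0.255 and 0.400 CPM (0.10 ± 0.29) and TBXAS1 at 7.31 and 8.83 CPM (adjusted p = 0.493). Within drug-susceptible cells edgeR called 0 of the 4, against 2.81% of genes, with 0 at an unadjusted p under 0.05 and 0 by DESeq2. Within primed cells it called 0 of 3 (PTGS2, TBXAS1 and LTA4H), against 0.375% of genes. There 1 (PTGS2) was at an unadjusted p under 0.05, and it passed the filter only through both untreated libraries and PI3Ki r1. DESeq2 gave these members no adjusted p.

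LTA4H stayed between 25.4 and 29.9 CPM in all 8 libraries and passed the test in no treatment (log2 fold changes between -0.14 and 0.16 in whole libraries). Its fold change after TGFB1 had an adjusted p of 0.115, and 0.0486 without TGFBRi r2. Its fold change after PI3Ki was past the threshold without TGFBRi r1 (0.0470) or r2 (0.0498). LTC4S and PTGS1 remained rare. All 16 LTC4S UMIs in primed cells came from the TGFB1 libraries, 6 and 10, and PTGS1 had 2 and 18 UMIs in primed TGFB1 cells, 0 and 5 in primed untreated cells, 1 and 3 after TGFBRi and 0 and 1 after PI3Ki. The interaction of state and treatment is described for members other than ALOX5AP with UMIs in both states of both groups compared. After TGFB1 (LTA4H, PTGS2, PTGES and TBXAS1) edgeR called 0 of 4, with 1 (LTA4H) at an unadjusted p under 0.05, where it called 9.98% of 18502 genes. After TGFBRi (PTGS1 as well) it called 0 of 5, with 0 at that level, where it called 0.551% of genes. DESeq2 was not run for the interaction.

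**Figure D3:**
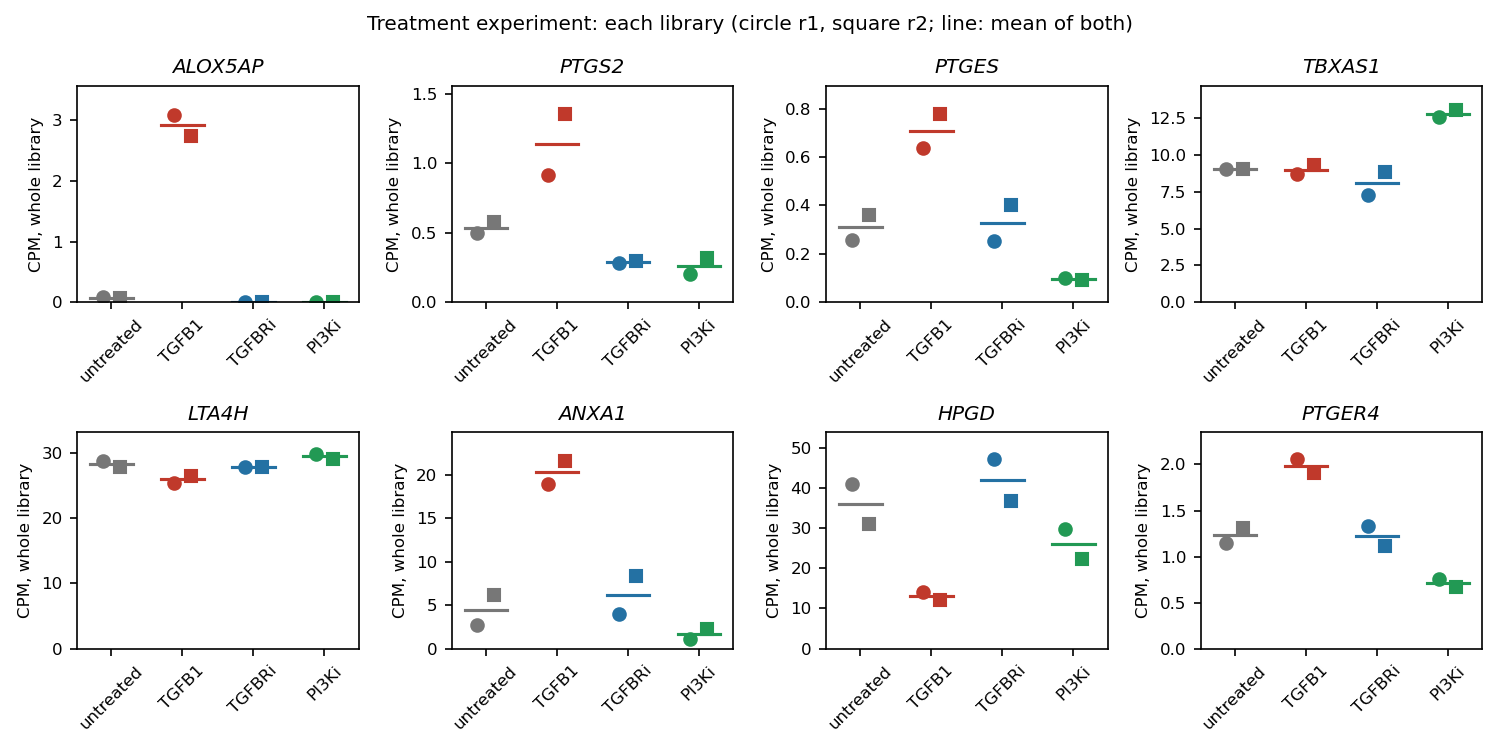
Whole-library level (CPM, vertical axes starting at 0) of 8 genes in the untreated, TGFB1, TGFBRi and PI3Ki libraries, with r1 as circles, r2 as squares and a line at the mean of both. ALOX5AP is near 3 CPM after TGFB1 and at or near 0 elsewhere, TBXAS1 is highest after PI3Ki (12.6 and 13.1 CPM), and HPGD is lowest after TGFB1 (14.1 and 12.2 CPM).

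**Figure D4:**
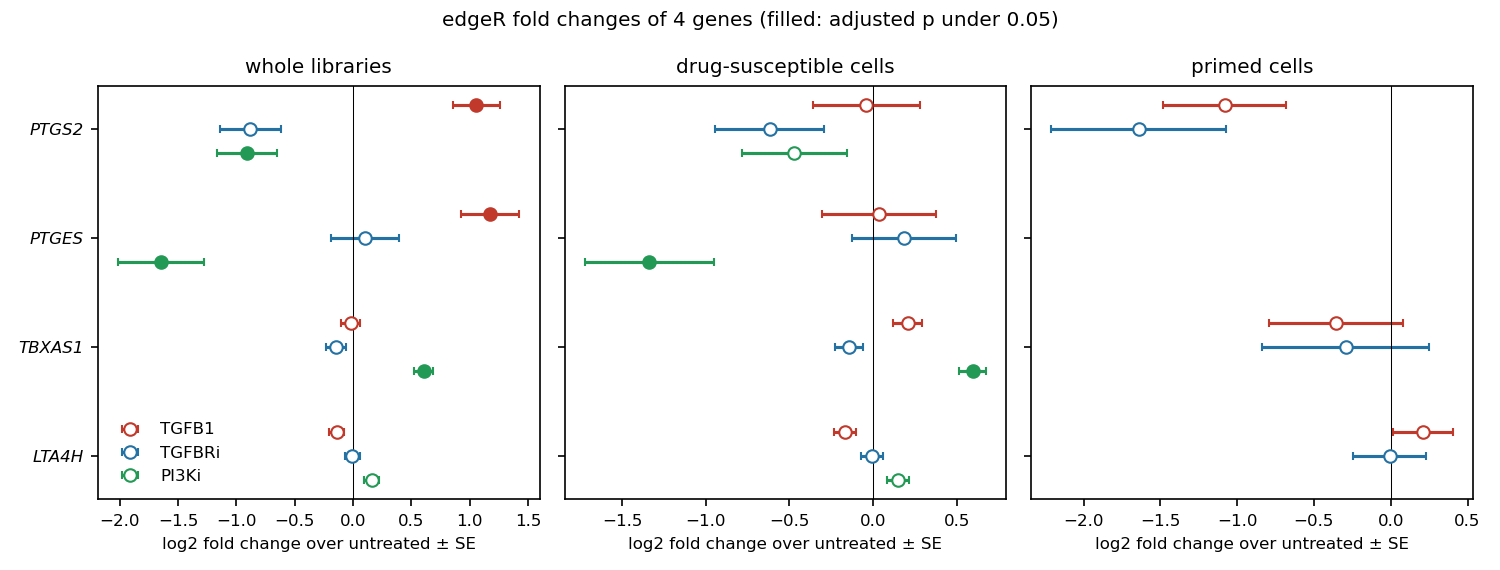
edgeR log2 fold change over untreated (horizontal axis, bars are SE) of PTGS2, PTGES, TBXAS1 and LTA4H in whole libraries, drug-susceptible cells and primed cells, with TGFB1, TGFBRi and PI3Ki in red, blue and green and filled points for an adjusted p under 0.05. The filled TGFB1 points of PTGS2 (1.06) and PTGES (1.18) in whole libraries become open and near 0 in drug-susceptible cells, and the PI3Ki point of TBXAS1 stays near 0.6 in both.

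A wider list of 51 genes that release, convert, export, inactivate or sense these lipids was examined in the same fits. In WM989 37 of them were counted, 13 were more than 2-fold higher and 2 more than 2-fold lower in primed cells, and the median ratio was 1.13 against 1.11 over all genes, of which 27.7% were past 2-fold in either direction. HPGD, which inactivates prostaglandin E2, was at 2.0 CPM in primed against 49.5 CPM in drug-susceptible cells (ratio 0.0405), opposite to PTGS2 and PTGES. ANXA1, a protein known for restraining phospholipase A2, was at 174 against 5.13 CPM (ratio 33.9). HPGD was also lower in primed WM983B cells (ratio 0.296) and ANXA1 higher (2.08), where 6 of 27 counted genes were higher and 1 lower, with a median of 1.02 against 1.05 over all genes, of which 6.27% were past 2-fold.

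After TGFB1, 5 of the 29 list genes tested rose and 2 fell in whole libraries, where 29.0% of all genes were called, and the median log2 fold change of the list was -0.02 against 0.0059 over all genes. HPGD fell to 14.1 and 12.2 CPM from 40.8 and 31.0 CPM untreated (-1.46 ± 0.07, adjusted p = 2.26e-13). It fell within drug-susceptible cells (18.1 and 15.9 against 41.1 and 31.7 CPM, -1.11, adjusted p = 3.97e-11) and within primed cells (2.24 and 1.88 against 23.1 and 9.66 CPM, -2.77 ± 0.36, adjusted p = 9.3e-08). The fall of HPGD was thus present inside both states, with the primed cells compared drawn from different clusters as given above.

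ANXA1 rose to 19.0 and 21.6 CPM from 2.74 and 6.17 CPM (2.25 ± 0.16, adjusted p = 1.29e-10). PTGER4, a receptor for prostaglandin E2, rose to 2.06 and 1.91 CPM from 1.15 and 1.31 CPM (0.67, adjusted p = 0.00154). PLA2G4C, a cytosolic phospholipase (1.36, adjusted p = 0.00130), and PTGIR, the prostacyclin receptor (0.62, 0.0310), also rose. LTB4R2, a low-affinity leukotriene B4 receptor, was called as well. It passed the filter on low counts only through treated libraries, so its test is not given, though the counts here include it. In drug-susceptible cells 4 of 27 rose (ANXA1, LTB4R2, ABCC4 and PLA2G15) and 1 fell (HPGD), where 14.9% of all genes were called. In primed cells 1 of 15 rose (PTGES2) and 1 fell (HPGD), where 13.3% were. PTGER4, PLA2G4C and PTGIR were not called in drug-susceptible cells (adjusted p = 0.263, 0.196 and 0.945) and were too low to be tested in primed cells.

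After PI3Ki 2 of the 29 list genes rose and 4 fell in whole libraries, where 12.7% of all genes were called. ANXA1 (-1.27), PTGER4 (-0.69), HPGD (-0.36) and PLA2G4A, a phospholipase that releases arachidonic acid (-0.35), fell, and LTB4R, the high-affinity leukotriene B4 receptor (0.41), rose. The other gene called higher was LTB4R2, whose calls are not read for the reason given below. In drug-susceptible cells 2 of 27 rose and 5 fell after PI3Ki, the genes above among them, where 12.1% of all genes were called. In whole libraries HPGD fell under both TGFB1 and PI3Ki and rose slightly under TGFBRi (47.1 and 36.7 CPM, 0.24, edgeR adjusted p = 0.0499). After TGFBRi 2 of the 29 rose (HPGD and LTB4R2), where 2.53% of all genes were called. LTB4R2 was called higher under each treatment, and the treatments share their untreated libraries. LTB4R2 was low throughout, with 5 and 6 UMIs in the untreated libraries, both below the cutoff of the filter on low counts (0.123 CPM). It passed that filter only through treated libraries, so its calls are not read further, though the counts of list genes include them.

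Open chromatin was measured by peaks that the authors called with MACS2 in each library alone, and their fold enrichment is not scaled between libraries. The median enrichment difference from the marker-negative sort over all gene starts was 1.74 for EGFR/NGFR-high, -1.35 for EGFR-high and 3.37 for NGFR-high, so single values are read against those shifts. With 3 libraries against 3 the smallest p of the exact permutation test is 0.1, and no comparison can pass 0.05. At ALOX5AP, no library had a peak within 500 bases of the start of the canonical transcript or of the RefSeq start 22058 bases upstream, and ALOX5 had none either. The member with the widest difference between states in WM989 thus had no called peak at its start in any sort.

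LTA4H, PTGS2, PTGES and TBXAS1 were the members with open starts. The enrichment at LTA4H was between 54.8 ± 2.56 (SD, n = 3, NGFR-high) and 63.6 ± 5.46 (EGFR/NGFR-high), with 58.1 ± 5.59 in marker-negative cells. PTGS2 had an open start in all sorts, 31.2 ± 1.90 in EGFR/NGFR-high, 25.8 ± 2.69 in EGFR-high, 29.6 ± 1.53 in NGFR-high and 29.0 ± 4.82 in marker-negative libraries. At both starts the libraries of each marker-high sort overlapped the marker-negative ones. The promoter of PTGS2 is the third sequence printed above.

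PTGES was at 16.3, 15.7 and 19.3 in NGFR-high and at 14.3, 11.3 and 10.2 in marker-negative libraries, the 1 member start without overlap in that comparison (exact two-sided permutation p = 0.1, and 0.25, also the smallest possible, with a replicate block), where 26.1% of all starts did not overlap. In EGFR/NGFR-high and EGFR-high libraries 0 member starts were without overlap, against 13.6% and 14.7% of all starts. TBXAS1 was at 9.90 ± 2.59, 5.56 ± 1.33 and 9.0 ± 4.44 in EGFR/NGFR-high, EGFR-high and NGFR-high, and at 7.80 ± 0.837 in marker-negative cells. PTGS1 and LTC4S each had a peak at the start in 1 of the 12 libraries.

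Inside ALOX5AP the picture differed from its start. The region at +8248 bases in intron 1 (chr13:30743173-30744223, hg38), the first sequence printed above, was open in all 12 libraries. Its enrichment was 39.6, 22.2 and 26.8 in EGFR/NGFR-high, 31.8, 28.4 and 30.1 in NGFR-high, 14.9, 19.9 and 18.1 in EGFR-high and 9.41, 11.8 and 12.1 in marker-negative libraries. Every library of the 3 marker-high sorts was above every marker-negative library, with ratios of means of 2.66, 2.71 and 1.59 for EGFR/NGFR-high, NGFR-high and EGFR-high (exact two-sided permutation p = 0.1 for each). The median difference over all regions was 0.659, 0.609 and -1.16 for the same sorts.

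The region at +4764 bases (chr13:30739737-30740932) was open in all libraries with a smaller contrast, 21.4, 15.6 and 15.4 in EGFR/NGFR-high against 14.8, 12.7 and 11.6 in marker-negative libraries (ratio 1.34, exact two-sided permutation p = 0.1). A region at +21894 bases in intron 4 ran the other way, with peaks of 5.38, 4.24 and 2.90 in the marker-negative libraries and none in EGFR/NGFR-high. The other regions, at -26711 and +6336 bases, were called in 3 libraries each. Of the 5 ALOX5AP regions, 2 were higher and 1 lower without overlap in EGFR/NGFR-high, and 1 was higher in each of EGFR-high and NGFR-high. Regions without overlap in either direction made up 25.6%, 23.2% and 26.6% of all regions in these 3 comparisons. Those that were higher numbered 24878 of 150785 in EGFR/NGFR-high, 9344 of 144498 in EGFR-high and 24637 of 149593 in NGFR-high. The share of regions higher in all 3 sorts is not given, and the 3 comparisons share their marker-negative libraries.

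**Figure D5:**
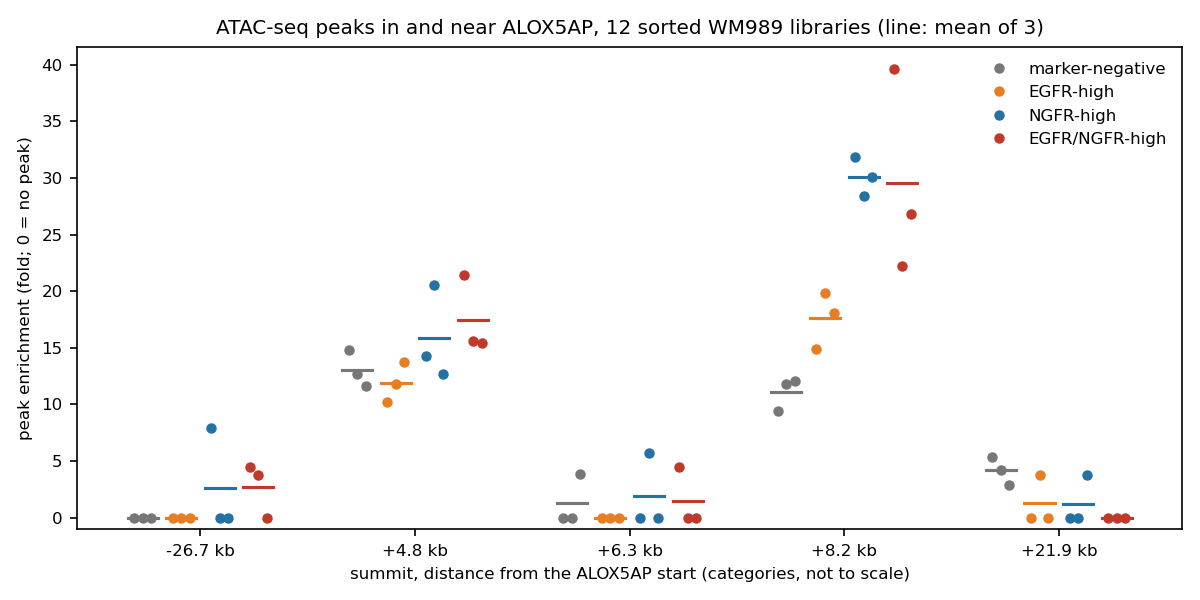
MACS2 fold enrichment (vertical axis, 0 where no peak was called) at the 5 open regions in or near ALOX5AP, placed by the distance of their summit from the canonical start (categories, not to scale), with 3 libraries and their mean for each sort. At +8.2 kb all 9 marker-high libraries lie above the 3 marker-negative ones, and at +21.9 kb only marker-negative libraries all have a peak.

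Regions near the other members gave contrasts in both directions. Beside them, 25.6%, 23.2% and 26.6% of all regions were without overlap in EGFR/NGFR-high, EGFR-high and NGFR-high. None of the 3 PTGS2 regions and not the 1 ALOX5 region differed without overlap in any sort. TBXAS1, the longest locus with 19 regions, had 2 higher and 5 lower in EGFR/NGFR-high. It had 1 higher and 4 lower in EGFR-high and 2 higher and 2 lower in NGFR-high. PTGES had 2 of 4 higher in NGFR-high and none in the other sorts. LTA4H had 2 of 7 and LTC4S 1 of 5 higher in EGFR/NGFR-high. In NGFR-high LTA4H had 2 higher and 1 lower, LTC4S 2 higher and PTGS1 1 higher. PTGS1 had 1 of 2 higher in EGFR/NGFR-high, a region 31624 bases downstream of its start and outside the gene (chr9:122402283-122402935), with 14.3, 17.0 and 12.4 against 7.17, 5.66 and 9.20 in marker-negative libraries.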

How the data were processed

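Single-cell transcripts were counted with 10x 3′ kits in WM989 and WM983B melanoma cells, and open chromatin by ATAC-seq in sorted WM989 cells. The authors aligned reads with Cell Ranger (version not given in the sources used here) to hg38, joined libraries without depth normalization, filtered cells in Seurat on genes per cell and mitochondrial reads, which removed likely doublets, and deposited UMI counts per gene and cell with cluster, state, replicate, well and treatment labels. For ATAC-seq, per the methods, reads were aligned with bowtie2 2.3.4.1, filtered with samtools 1.1 and picard, and peaks called by the authors in each library with MACS2 2.1.1.20160309. The deposited peak values were a ratio (fold enrichment over the local background) and a −log10 q-value.

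The 8 members, the wider list and the marker lists (leukocyte, melanocytic, primed, fibroblast, endothelial) were chosen with earlier results of these data known. UMIs were summed per state, cluster, well or library and divided by the summed total (CPM). Ratios of summed counts carry exact 95% counting intervals. Doublets were not called again. Counts per library (whole, drug-susceptible, or primed with at least 20 cells) were tested in edgeR 4.0.16 (R 4.3.3, TMM, quasi-likelihood, two-sided, Benjamini-Hochberg over all genes, threshold 0.05) with treatment and replicate as terms over all 8 libraries, giving 3 residual degrees of freedom. The replicate names came from the cell labels, and the 4 same-numbered libraries were split from 1 expanded sample. Deviations of same-numbered libraries from their group means correlated at 0.255 to 0.366 in whole libraries, 0.246 to 0.358 in drug-susceptible and 0.0255 to 0.145 in primed cells. DESeq2 1.42.0 was an alternative. The scripts were tested on simulated data. Peaks were assigned to starts within 500 bases and compared by exact permutation over libraries, with 0 where no peak was called. Overlapping peaks in at least 3 libraries were merged into regions, kept within 10000 bases of a gene.

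Named genes were the 8 members, genes of the wider list called under a treatment (at most 6 with the largest fold change per comparison) and the 5 genes most like ALOX5AP over clusters. GEO labels name the 2 libraries of a treatment Mix and Primed, which was not used as a group. Protein sequences were not used here.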

Additional observations from a re-analysis of the deposited data

Results flagged for a closer look

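The response to TGFB1 differed between primed and drug-susceptible cells for 4 of the 30 genes of the wider list that were tested, by an edgeR quasi-likelihood test of the difference itself, which called 9.98% of all 18502 genes. This fit of state by treatment was chosen after the data were seen. For HPGD the log2 effect in primed minus that in drug-susceptible cells was -1.59 ± 0.29 (SE, adjusted p = 1.37e-06). HPGD fell in both states, by 2.77 in primed and by 1.11 in drug-susceptible cells. For ANXA1 the difference was -0.82 ± 0.15 (adjusted p = 4.56e-06), with a rise of 0.76 in drug-susceptible cells and a value of -0.23 in primed cells, where ANXA1 was already at 75.3 and 92.6 CPM untreated and at 63.4 and 71.0 CPM after TGFB1. PTGES3, a co-chaperone also described as a prostaglandin E synthase, had a difference of 0.33 ± 0.09 (adjusted p = 0.00437). ABCC4, an exporter of prostaglandins, had a difference of -0.67 ± 0.23 (adjusted p = 0.0401). Primed cells were mostly in cluster 4 after TGFB1 (98.2% and 97.1%) and mostly in cluster 10 untreated (94.7% and 96.4%), so cluster and treatment cannot be told apart in the primed values behind these differences.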

How the results depend on the processing

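Apart from ATAC-seq, no result changed direction past its threshold under any alternative. The ATAC-seq comparisons cannot pass their threshold with so few libraries, so this check cannot show a change of direction there. At the TBXAS1 start, NGFR-high exceeded marker-negative enrichment in replicate 3 (14.1 against 8.71). It was lower in replicates 1 and 2 (6.76 and 6.12 against 7.62 and 7.07). The number of members called, ALOX5AP left out, was 2 for TGFB1 in whole libraries and stayed within 1.5 times that under each setting (2 to 3 with 1 library left out). After PI3Ki it was 3 in whole libraries (1 by DESeq2, 1 to 4 with 1 library left out) and 2 in drug-susceptible cells (1 by DESeq2, 1 with no replicate block, 1 to 2 with 1 library left out). After TGFB1 it was 0 in drug-susceptible cells (0 to 2 with 1 library left out, LTA4H and TBXAS1 without either TGFBRi library) and 0 in primed cells (0 to 1, PTGS2 without PI3Ki r2). After TGFBRi it was 0 in whole libraries (1, PTGS2, with no filter on low counts) and 0 within either state, also with 1 library left out. Where 1 library stood for an arm, it was assumed to vary like the other groups. The replicate block changed no other count of members past the threshold by more than 1.5 times. The number of member starts whose groups did not overlap in ATAC-seq ranged from 0 to 2 in EGFR/NGFR-high, 0 to 2 in EGFR-high and 1 to 3 in NGFR-high with 1 replicate left out. With 2 libraries against 2, the share of all starts without overlap was 29.9% to 44.5%, 34.0% to 45.7% and 42.5% to 57.1%. The cause of these changes was not tested, apart from the fewer samples compared.

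Counts over all genes moved more. With no replicate block edgeR called 40 genes after TGFBRi and 649 after PI3Ki in whole libraries, against 466 and 2328, and in drug-susceptible cells 1189, 47 and 570 after TGFB1, TGFBRi and PI3Ki, against 2665, 503 and 2170. In primed cells it called 9 after TGFBRi against 41. DESeq2 called 693 against 1454 after TGFB1 and 16 against 41 after TGFBRi in primed cells, and 326 against 503 after TGFBRi in drug-susceptible cells. With no filter on low counts 748 genes were called after TGFBRi in whole libraries. With library totals in place of TMM, 3523 genes were called after PI3Ki in whole libraries, 560 of them higher, against 1072 higher of 2328, and 3408 in drug-susceptible cells, 583 higher, against 1056 of 2170. After TGFB1 in primed cells 492 of 1433 were higher, against 679 of 1454. With 1 library left out the whole-library counts were 3164 to 6377 after TGFB1, 168 to 1146 after TGFBRi and 719 to 3298 after PI3Ki, the drug-susceptible counts 988 to 3722, 206 to 1247 and 632 to 3286, and the primed counts 584 to 1726 and 17 to 63. LTC4S and PTGS1 did not pass the filter in the comparisons with untreated libraries, and in the primed cells of the untreated and inhibitor libraries a few UMIs set the levels of ALOX5AP, PTGS2 and PTGES.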
